A study of Drosophila busckii and Drosophila melanogaster and Drosophila virilis with 5 samples.

Results

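Of the 2127 boundaries between topologically associating domains (TADs) in the Hi-C map of D. virilis embryos, 247 lay between neighbouring genes of the same strand and at most 1000 bp from an annotated transcript start (11.6%, exact 95% binomial interval 10.3 to 13.1%). They were chosen by position alone. The centre of the boundary had to fall in no annotated gene, the nearest genes to its left and right had to share a strand, and a transcript start had to lie in the window; the score of the boundary was not used. Such boundaries made up 26.5% of the 931 boundaries with an intergenic centre and 55.9% of the 442 with an intergenic centre between same-strand genes. The series holds 6470 boundaries in 3 lists.

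Hi-C, in which DNA that lies close together in the nucleus is ligated and sequenced to measure chromosome folding, was performed on mixed-sex embryos of stage 15 to 16. The D. virilis embryos came from a San Diego stock center strain and the D. melanogaster embryos from a strain labelled w1118 Oregon R, and neither carried a treatment. The 2 replicates of a species were merged before boundaries were called. A list therefore has no replicate, so the values below are descriptions without a test, and all intervals cover counting over boundaries only.

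A TAD is a domain of the chromosome with frequent contacts inside it and few contacts to the domains beside it, and its boundary is the place where contacts drop. In flies, boundaries are known to lie often at the promoters of active genes, where insulator proteins such as BEAF-32 and promoter factors such as M1BP bind. Between same-strand genes only 1 of the flanking genes starts at the gap and the other ends there, so a boundary in such a gap has a 5′ end on one side and a 3′ end on the other. The gene whose 5′ end faces the boundary is called the downstream gene here, and the gene whose 3′ end faces it the upstream gene. The TADs on the corresponding sides are called the downstream and the upstream TAD.

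No D. virilis sequence was used here. For 5 of the genes with a name of their own beside these boundaries, the D. melanogaster map also had a boundary between same-strand genes near a start, at the same end of the same gene, and the gene-free sequence at 4 of these places is shown as an example of what such a gap holds. It was read 5′ to 3′ on the strand of the flanking genes from the RefSeq genome of D. melanogaster, and it is the 300 bp around the boundary centre, or the whole gap of 290 bp after amd. Capitals mark the letters CGATA or their reverse complement TATCG, the core that BEAF-32 recognises in D. melanogaster, a motif chosen after these sequences had been seen. The positions are 2L:9612840-9613139 (+ strand) before Trx2, 2L:19114111-19114400 (+ strand) after amd, 2L:7426231-7426530 (+ strand) after mir-305 and 3R:6660514-6660813 (− strand) after lab.
Trx2: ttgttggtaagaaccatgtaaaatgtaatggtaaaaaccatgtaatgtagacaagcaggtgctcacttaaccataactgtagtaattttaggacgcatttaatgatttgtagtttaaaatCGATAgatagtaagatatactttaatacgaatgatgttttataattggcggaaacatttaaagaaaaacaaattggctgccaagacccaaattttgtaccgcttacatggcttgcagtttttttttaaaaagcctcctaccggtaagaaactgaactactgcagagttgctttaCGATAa
amd: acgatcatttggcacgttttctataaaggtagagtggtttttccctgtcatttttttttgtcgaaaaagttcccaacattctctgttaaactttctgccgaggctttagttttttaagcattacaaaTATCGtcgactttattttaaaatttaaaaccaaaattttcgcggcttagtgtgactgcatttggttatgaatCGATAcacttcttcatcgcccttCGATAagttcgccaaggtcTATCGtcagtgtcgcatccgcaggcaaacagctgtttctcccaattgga
mir-305: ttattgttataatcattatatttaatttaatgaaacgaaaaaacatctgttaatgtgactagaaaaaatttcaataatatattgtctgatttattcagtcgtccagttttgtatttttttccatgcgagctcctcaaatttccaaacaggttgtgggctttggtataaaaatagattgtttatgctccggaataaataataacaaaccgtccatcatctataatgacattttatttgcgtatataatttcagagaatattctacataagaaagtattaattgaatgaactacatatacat
lab: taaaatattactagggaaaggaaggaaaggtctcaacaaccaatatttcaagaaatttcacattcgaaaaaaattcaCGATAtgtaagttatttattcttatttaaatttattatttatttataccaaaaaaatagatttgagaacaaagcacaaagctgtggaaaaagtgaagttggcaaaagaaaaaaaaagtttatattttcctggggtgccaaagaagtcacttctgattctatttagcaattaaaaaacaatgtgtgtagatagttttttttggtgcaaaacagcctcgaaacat
In D. melanogaster the gene across the gap is gcm2 for Trx2, CG10561 for amd, muc for mir-305 and agt for lab. The sequence printed for amd held 4 matches, that for Trx2 held 2, that for lab held 1 and that for mir-305 held 0. For the last 3 it is a part of the gap, which measures 459 bp at Trx2, 1326 bp at lab and 821 bp at mir-305. The longer motifs TATCGATA (BEAF-32/DRE, which contains the core on both strands), GGTCACACT (Motif 1, which M1BP binds) and GAGAGAG, which the Trl protein binds, had no match in the 4 sequences. Over all D. melanogaster boundaries of the class, 103 of 246 windows of 300 bp held the core at least once (41.9%, interval 35.6 to 48.3%), against 787 of 1963 windows at the other boundaries of that list (40.1%, 37.9 to 42.3%). At least 3 copies were found in 36 windows of the class (14.6%) and in 137 windows at other boundaries (6.98%). Copies were counted on both strands, so 1 TATCGATA counts as 2 copies of the core. TATCGATA was in 8.94% of the class (5.69 to 13.2%) and 5.65% of the others (4.67 to 6.77%). GGTCACACT was in 9.35% (6.02 to 13.7%) and 3.41% (2.65 to 4.31%), and GAGAGAG in 3.66% (1.69 to 6.83%) and 5.76% (4.77 to 6.88%). Among the shares given with intervals, only those of GGTCACACT had intervals that did not overlap. For the share with at least 3 copies of the core no interval was computed. The others mix boundaries near starts with boundaries away from them, and motifs were not counted for these apart. Whether a difference is particular to this class was therefore not tested. Unlike the printed sequences, the windows of both groups were not trimmed to the gap and can include gene sequence. A match is a run of letters and not a measured binding site.

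The 247 D. virilis boundaries were spread over all 6 arms and over both strands, with 121 between genes of the + strand and 126 between genes of the − strand. They made up 48 of the 399 boundaries of 2L, 11.7% of those of 2R (48 of 410), 14.3% of 3L (57 of 398), 10.2% of 3R (53 of 519), 6.25% of chromosome 4 (2 of 32) and 10.6% of X (39 of 369). The interval of each arm included the share over all arms, and that of chromosome 4, with 2 such boundaries, ran from 0.766 to 20.8%. Set against the same-strand gaps that an arm offers, the numbers were 5.76 per 100 gaps on 3L, 3.91 per 100 gaps on 3R and values between these on the other 4 arms.

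**Figure D1:**
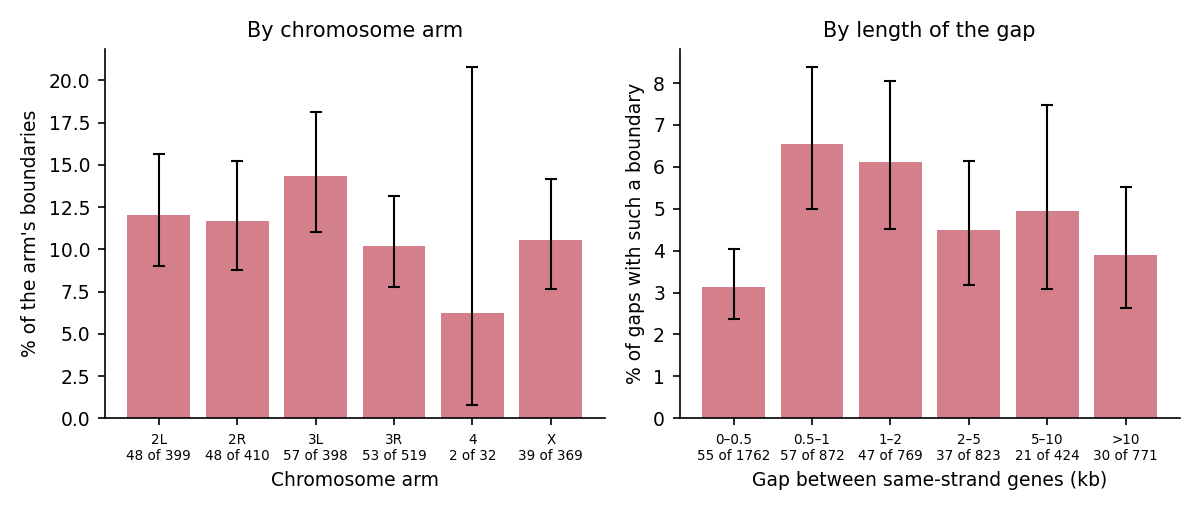
Left, share of each chromosome arm's D. virilis boundaries that lay between same-strand genes within 1000 bp of a start (bars, percent; error bars, exact 95% binomial intervals; counts under the arms). Right, share of all gaps between same-strand genes that held such a boundary, by gap length. The arms ran between 6.25 and 14.3% with overlapping intervals, and the shortest gaps held such a boundary least often, at 3.12%.

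Boundaries of this class had a lower median score than the rest of the map, as did the other boundaries near starts. The boundary score is the TAD-separation score of the authors' caller, which has no unit and is lower where fewer contacts cross. Its median was -0.0851 over the 247 boundaries (interval of the median -0.103 to -0.0627), against -0.0504 over the 1880 other D. virilis boundaries (-0.0593 to -0.0432). The quartiles were -0.171 and 0.0253, against -0.149 and 0.0651 for the others, so the distributions overlapped widely. The difference of medians was -0.0347, and the interval of the class median, set against the median of the others, kept it between -0.0521 and -0.0123. That interval reached or passed 0 with a window of 2000 bp (difference -0.0232, up to 0.000561) and without arm 3L (-0.0272, up to 0.000259). It also did so for boundaries of the class no wider than 1000 bp (-0.0230, up to 0.0105), set against others of every width. The same held for the 54 boundaries whose whole interval lay outside genes (-0.0447, up to 0.0338). There the boundaries of the class that were left out counted among the others. Of the 247, 30 (12.1%) were among the 212 strongest of the list and 11 (4.45%) among the 212 weakest, against 182 (9.68%) and 201 (10.7%) of the others.

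Among places in the annotation, the median scores were lower near starts than away from them, though not all intervals were apart. The 294 boundaries between divergent genes near a start had a median of -0.0809 and the 844 boundaries inside a gene near a start had -0.0683, and the intervals of both overlapped that of the 247. Away from starts the medians were -0.0295 for 195 boundaries between same-strand genes, -0.0336 for 97 between divergent genes and 0.0136 for 352 inside genes, and between convergent genes it was -0.0232 for 98 boundaries with or without a start in the window. The interval of the 195 same-strand boundaries without a start, -0.0524 to -0.00325, did not overlap that of the 247. Neither did that of the 352 inside genes (-0.00642 to 0.0392). Those of the 97 divergent boundaries without a start (-0.0886 to 0.0402) and of the 98 convergent ones (-0.0655 to 0.0348) did overlap it. The median of the 247 was below that of the other boundaries of the same arm on each arm. On 3L it was -0.118, against -0.0581 for the others, on 2L -0.101 against -0.0544 and on 3R -0.0650 against -0.0275. The gap between the medians was smaller on X (-0.0895 against -0.0744) and on 2R (-0.0577 against -0.0439). On chromosome 4 the 2 boundaries had a median of -0.357, against -0.125 for the 30 others.

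**Figure D2:**
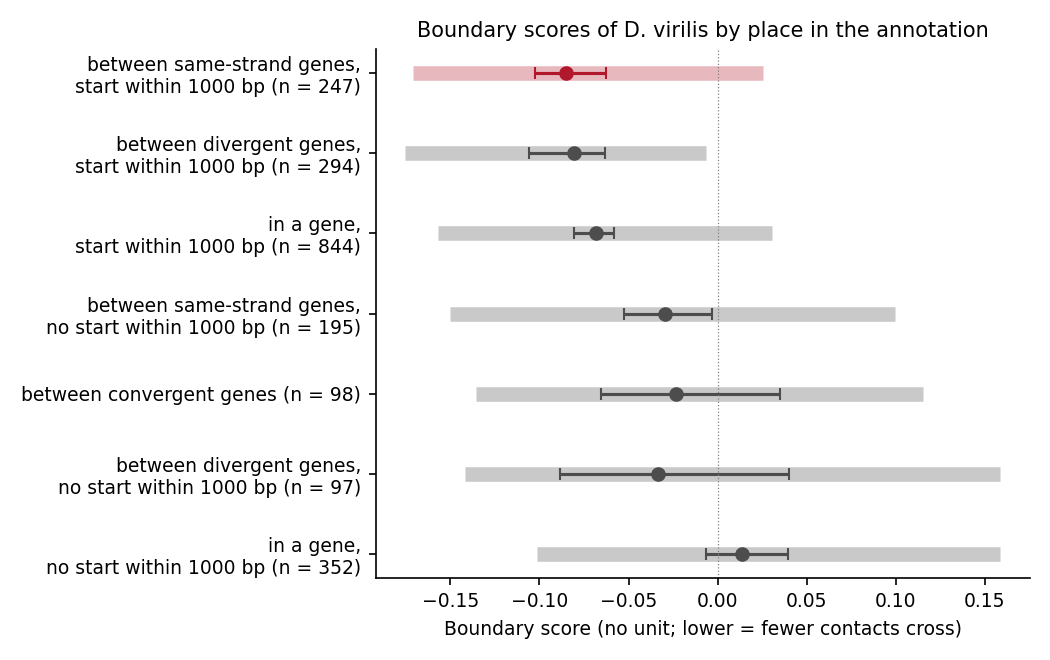
Boundary score (x axis, no unit, lower where fewer contacts cross) of the D. virilis boundaries by place in the annotation. Points are medians, thin bars their 95% intervals and broad bars the quartiles. The 3 groups with a start within 1000 bp have medians between -0.0851 and -0.0683, to the left of the other groups.

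The strongest boundary of the class had a score of -0.452 and lay between GJ11293 and GJ11294 on 3L (2379167 to 2381398), 596 bp from the 5′ end of GJ11294 and 9177 bp from the 3′ end of GJ11293. Its downstream TAD measured 22.7 kb and its upstream TAD 200.1 kb. GJ numbers are gene models for which no role is given in the annotation. The next 4 were between GJ25952 and GJ21981 on chromosome 4 (-0.422), GJ17490 and GJ17501 on 2R (-0.405), GJ24684 and GJ24685 on 3R (-0.403) and GJ25595 and GJ11179 on 3R (-0.382). These 4 differed in their surroundings. The 2R boundary sat in a gap of 373 bp, 48 bp from the 5′ end of GJ17501, while the last of them sat in a gap of 49093 bp and opened the longest TAD beside any boundary of the class, 751 kb with 12 coding genes. The others of the 10 lowest were at GJ23393 and GJ23394 (-0.378), GJ13857 and GJ13858 (-0.342), GJ13837 and GJ13838 (-0.327), GJ25868 and GJ14048 (-0.321) and GJ10345 and GJ10346 (-0.303). Of the 10 lowest scores, 4 were on 3L and 4 on 3R.

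The highest scores of the class, which mark the weakest boundaries, were 0.396 between a tRNA gene and GJ25905, 0.334 between another tRNA gene and GJ22664, 0.333 between GJ22647 and GJ22648, 0.313 between GJ22216 and GJ22218 and 0.305 between GJ14161 and fkh. Of these 5, 4 were on 3R. The upper quartile of the whole list was 0.0610, so all 5 lay above it.

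The rule fixes the distance to a start but not the distance to the 3′ end of the upstream gene, nor which gene owns the start. The nearest start was that of the downstream gene at 241 of the 247 boundaries. At 3 it was that of the upstream gene, a tRNA gene each time, short enough for its own start to lie in the window, and at 3 it belonged to neither flanking gene. The median distance from the boundary centre was 263 bp to the nearest start (interval 234.5 to 317 bp) and 746 bp to the 3′ end of the upstream gene (592.5 to 1073 bp). The start lay within 100 bp at 45 boundaries and within 500 bp at 180. For tRNA and miRNA genes, the annotated start is the end of the annotated RNA and need not be where transcription begins.

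Between closely spaced genes the label of a promoter boundary could not be told from that of a boundary at a gene end. Of the 247 gaps, 112 were 1000 bp or shorter. In these, the centre was nearer to the 5′ end of the downstream gene at 60 and nearer to the 3′ end of the upstream gene at 52 (53.6% nearer the start, interval 43.9 to 63.0%). The median distances were 179 bp to the 5′ end and 204 bp to the 3′ end, in gaps with a median of 510.5 bp. In the 135 longer gaps the centre was nearer the start at 122, a direction that the 1000 bp window favours. The annotated interval of the boundary, whose median width was 832 bp (257 to 2888 bp), covered the 5′ end of the downstream gene at 170 boundaries and the 3′ end of the upstream gene at 94. It covered both ends at 71 and neither at 54.

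**Figure D3:**
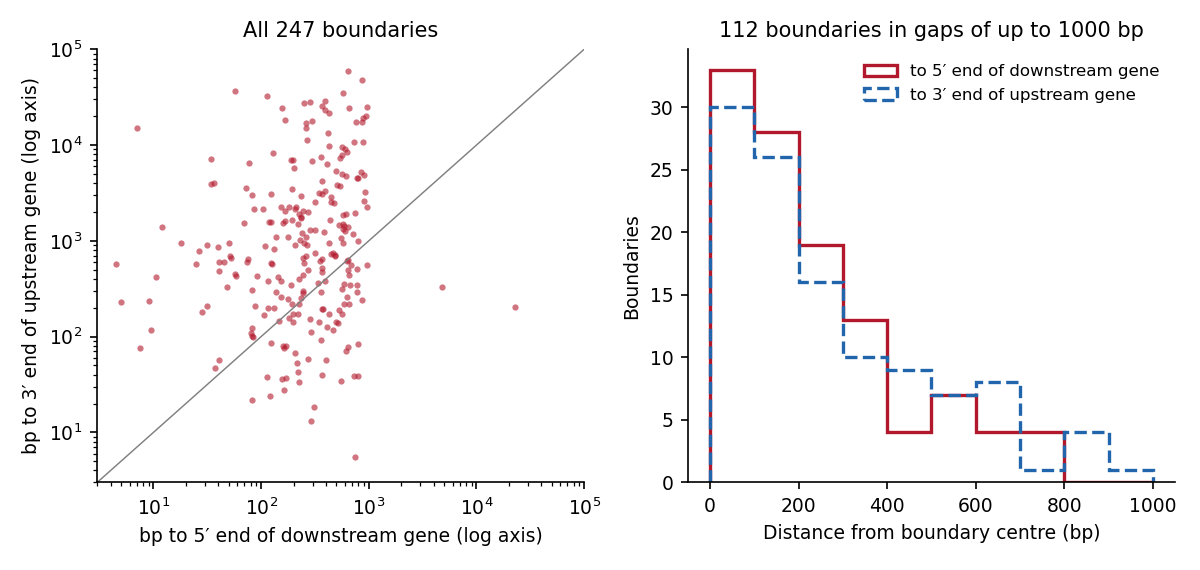
Left, distance of each of the 247 boundary centres from the 5′ end of the downstream gene (x axis, bp, log axis) and from the 3′ end of the upstream gene (y axis, bp, log axis), with the line of equal distance. Right, both distances for the 112 boundaries in gaps of up to 1000 bp. In the short gaps the histograms nearly coincide, with medians of 179 bp to the 5′ end and 204 bp to the 3′ end.

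The gaps that held these boundaries had a median length close to that of all same-strand gaps, a length that the rule affects. Their median was 1164 bp (949 to 1519 bp), against 1059 bp over all 5421 gaps between same-strand genes of the arms (1004 to 1120 bp), and no gap held more than 1 boundary of the class. Requiring a start in the window leaves out boundaries in the middle of long gaps. The 195 boundaries between same-strand genes without a start in the window had a median gap of 10.3 kb. With windows of 500 and 2000 bp the median gap of the class was 0.908 and 1.69 kb. Boundaries of the class were found in 4.56% of all same-strand gaps. The share was 3.12% of gaps up to 0.5 kb (55 of 1762), 57 of 872 of those between 0.5 and 1 kb (4.99 to 8.39%), 6.11% between 1 and 2 kb (47 of 769) and 3.89% of those over 10 kb (30 of 771). A longer gap offers more sequence for a centre to fall in, and the centre had to lie near a start. The median score was -0.0864 in the 112 gaps of up to 1000 bp and -0.0832 in the 135 longer gaps, with intervals that overlapped almost fully. It was -0.132 in the 30 gaps over 10 kb (quartiles -0.196 and 0.00946).

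The shortest gaps were 82 bp between GJ13243 and GJ13244 on 3L, 83 bp between GJ12460 and GJ12461 on 3L and 96 bp between GJ16142 and GJ16143 on 2L. Their scores of 0.0168, -0.00271 and 0.0373 all lay above the median of the list, -0.0543. The longest gaps were 59752 bp between GJ27115 and GJ15409 on 2L, 49093 bp between GJ25595 and GJ11179 on 3R and 37048 bp between GJ17357 and GJ17358 on 2L, with scores of -0.213, -0.382 and -0.0399. The centres lay 642.5 bp, 855.5 bp and 57.5 bp from the 5′ end of the downstream gene; in gaps this long the rule fixes that side.

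The 3 boundaries just inside the window lay 958.5 bp (between GJ16812 and GJ16813), 966 bp (GJ11971 and GJ11972) and 969.5 bp (GJ21555 and GJ21554) from the nearest start, with scores of -0.101, -0.119 and -0.0940. The 3 just outside lay at 1001 bp (GJ10782 and GJ10785), 1001.5 bp (GJ21102 and GJ26832) and 1019.5 bp (GJ22430 and GJ22429), with scores of -0.213, -0.152 and -0.0496.

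The downstream TAD was the shorter one more often than the upstream TAD. It measured a median of 32.8 kb (29.7 to 36.2 kb), against 47.6 kb for the upstream TAD (41.2 to 54.9 kb), and it was the shorter at 147 of the 247 boundaries (59.5%, interval 53.1 to 65.7%). It was under 0.5 times the length of the upstream TAD at 95 boundaries, and the reverse held at 58. The share was 62.8% between genes of the + strand (76 of 121, interval 53.6 to 71.4%). Between genes of the − strand it was 56.3% (71 of 126, interval 47.2 to 65.2%). The 2 intervals overlapped, and that of the − strand included an even split. Whether the share depends on the direction along the chromosome was not tested. By arm it was the shorter at 32 of 48 boundaries on 2L, 24 of 48 on 2R, 31 of 57 on 3L, 35 of 53 on 3R, 25 of 39 on X and 0 of 2 on chromosome 4. Of these TADs, 32 had a boundary of the class at each end and were counted at both. In 19 of them the TAD was downstream of 1 boundary and upstream of the other. In 7 it was upstream of both, and in 6 it was downstream of both. The 247 pairs are therefore not fully independent.

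The imbalance was larger at the wider boundaries. Where the interval was wider than 1000 bp, the downstream TAD was the shorter at 62 of 87 boundaries (71.3%, interval 60.6 to 80.5%), and where it was 1000 bp or narrower at 85 of 160 (53.1%, 45.1 to 61.0%), and these intervals overlapped slightly. The wider boundaries also had the lower scores, with a median of -0.118, against -0.0734 for the narrower ones. This split by width was added after the values had been seen, and the part of boundary width in the imbalance was not tested further. By gap, the share was 56.3% in gaps of up to 1000 bp (63 of 112, interval 46.6 to 65.6%) and 62.2% in longer gaps (84 of 135, interval 53.5 to 70.4%). The same measure gave 51.6% at the D. virilis boundaries between same-strand genes without a start in the window (98 of 190) and 47.9% at those inside a gene near a start (404 of 844), with the downstream side taken from the gene that owns the start. It gave 50.6% at the boundaries of the same class in D. melanogaster (124 of 245, interval 44.2 to 57.0%), where the median lengths were 33.0 kb downstream and 33.4 kb upstream. The intervals of the species overlapped.

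**Figure D4:**
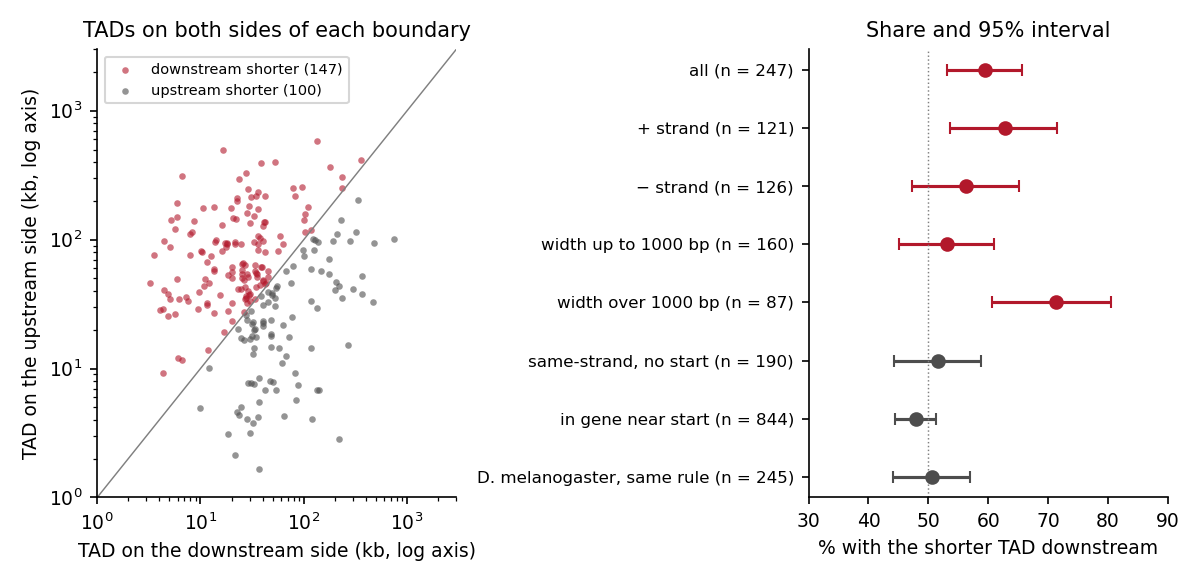
Left, length of the downstream TAD (x axis, kb, log axis) and of the upstream TAD (y axis, kb, log axis) at the 247 boundaries; points above the line have the shorter TAD downstream (147). Right, share of boundaries with the shorter TAD downstream with exact 95% binomial intervals, for D. virilis boundaries of the class and its subsets (red) and for other D. virilis boundaries and D. melanogaster (grey). The interval lies above 50% for all 247, for the + strand and for the 87 wider boundaries, and includes 50% in the other sets plotted.

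Both sides held like numbers of genes. The downstream TAD held a median of 4 coding genes and the upstream TAD 5, and the downstream TAD held more at 116 boundaries, the upstream TAD more at 110, with equal numbers at 21. With its shorter length the downstream TAD had a median of 143 coding genes per Mb (125 to 168), against 91.4 on the upstream side (76.7 to 109). A density has the length as its denominator and therefore moves with it. The downstream TAD held the midpoint of 1 coding gene only at 22 boundaries, and the upstream TAD at 39. The longest TADs beside boundaries of the class were the 751 kb TAD downstream of GJ25595 and GJ11179 on 3R, the 580 kb TAD upstream of the boundary at GJ26860 and GJ14253 on 3R (score 0.240) and the 496 kb TAD upstream of that at GJ13712 and GJ26365 on 3L (score -0.0852).

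Of the 494 next boundaries on either side, 64 were of the same class (13.0%, interval 10.1 to 16.2%), against 11.6% of all boundaries, and 199 lay inside a gene near a start (40.3%), against 39.7% of all. Boundaries between same-strand genes without a start in the window were less frequent among them than in the list, with 29 (5.87%, interval 3.97 to 8.32%), against 9.17% of all. Where consecutive boundaries were both of the class, each was counted as the neighbour of the other. The 64 are therefore not independent, and their interval does not allow for this. The 247 formed 188 single boundaries, 22 pairs of consecutive ones and 5 runs of 3. This left 32 TADs with a boundary of the class at each end, 4.04 to 252 kb long with a median of 36.1 kb. In 19 of them the genes at both ends were on the same strand. The 32 TADs held a median of 7 coding genes.

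The strongest such TAD by the sum of its scores ran over 17.1 kb on 3R with 5 coding genes, the first GJ23947 and the last GJ23945, between boundaries with scores of -0.282 and -0.211, and the second of these is the boundary at the Hox gene lab. The next measured 137 kb on X, from GJ15853 to GJ15725, with scores of -0.283 and -0.184. A TAD of 83.0 kb on 3L was spanned by GJ12799 (-0.199 and -0.195) and ended at the boundary beside the tyrosyl-tRNA synthetase gene Aats-tyr. The TAD of the pair-rule gene eve on 2R measured 21.6 kb and held 2 coding genes, with scores of -0.146 on the side where eve ends and -0.243 on the other. The fifth lay on 3L, from GJ12256 to GJ25784, with a length of 34.7 kb and scores of -0.192 and -0.185.

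Most flanking genes were coding. The downstream gene was coding at 237 of the 247 boundaries (96.0%), the upstream gene at 230 (93.1%) and both at 225, against 92.4% of the 14493 genes of the arms. Coding downstream genes had a median length of 3.23 kb (2.68 to 4.02 kb), the coding upstream genes 2.81 kb (2.15 to 3.91 kb) and all 13391 coding genes 2.21 kb (2.17 to 2.25 kb). A 5′ UTR was annotated for 228 of the 237 coding downstream genes (96.2%, interval 92.9 to 98.2%), against 88.4% of all coding genes. A gene with an annotated UTR has a start placed outside its coding sequence, which the window depends on. More than 1 start was annotated for 21.5% of the coding downstream genes, 21.7% of the coding upstream genes and 17.3% of all coding genes.

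In 22 cases at least 1 flanking gene was not coding. These included tRNA genes, miRNA genes and a U1 spliceosomal RNA gene. Between the pair of miRNA genes mir-969 and mir-210 on X, the boundary had a score of -0.133 and lay 405.5 bp from the annotated end of mir-210 and 6371.5 bp from mir-969. Its downstream TAD measured 13.4 kb and its upstream TAD 178 kb. At the U1 gene snRNA:U1:2 on 3R the boundary was weak (0.117) and lay 1918 bp past the gene.

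Boundaries near places where the assembly was joined were rare in the whole list, and none was of the class. The arms were built from pieces of an earlier assembly, and a false join can itself produce a drop of contacts. None of the 247 lay within 5000 bp of a joint (0 of 247, upper exact 95% limit 1.48%), and the nearest joint was 19.3 kb away. Of all 2127 D. virilis boundaries 15 did (0.705%, interval 0.395 to 1.16%), a share below the upper limit of the class. The 2 boundaries of the class on chromosome 4 had no joint on their arm, so a distance was measured for 245. A joint is the middle of the space between consecutive pieces in the chain file, so the edge of a piece can lie nearer than its joint.

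Of the 494 flanking genes, 14 had a name other than a GJ number, at 13 boundaries. Their roles are known from D. melanogaster. Among the gene lists looked up by symbol, 2 of the 13 developmental genes found by symbol in the annotation flanked a boundary of the class (eve and lab), as did 0 of 6 housekeeping genes, 0 of 3 architectural protein genes and 0 of 3 dosage compensation genes. Over all 453 genes of the arms with a name other than a GJ number, 14 flanked such a boundary. With so few genes carrying a symbol, these counts say little about the lists.

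Genes of metabolism and cell upkeep stood on either side of these boundaries. The boundary at Trx-2, which encodes a thioredoxin, lay on 2L at 5776290 to 5777497, 75 bp before the 5′ end of the gene, with a score of -0.204. Its downstream TAD measured 5.87 kb and held 1 coding gene, against 49.7 kb for the upstream TAD. The boundary at Gpdh, the glycerol-3-phosphate dehydrogenase gene of flight muscle metabolism, lay 188.5 bp before the gene with a score of -0.00888. That at Aats-tyr lay 394.5 bp past the end of the gene with a score of -0.195, and its downstream TAD of 83.0 kb was longer than the upstream TAD of 9.29 kb that holds Aats-tyr. At amd, which encodes an enzyme related to Dopa decarboxylase, the boundary lay 57 bp past the end of the gene and 396 bp before GJ18242, with a score of -0.119. At hook, a gene of endocytic transport, the gap was 189 bp, the centre lay 28 bp past GJ11570 and 162 bp before hook, and the score was 0.0922.

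Of 4 developmental regulators, 3 stood on the upstream side, with their 3′ ends facing the boundary at some distance. The boundary after pros, a homeodomain factor of dividing neural precursors, lay 15071 bp past the annotated end of the gene and 261 bp before GJ23425, with a score of -0.175. The upstream TAD, on the side of pros, measured 215 kb, against 31.1 kb downstream. The boundary after eve lay 11193.5 bp past the gene and 266.5 bp before GJ21270 (-0.146). The boundary after lab lay 2009 bp past the gene and 274 bp before GJ23945 (-0.211), with TADs of 17.1 kb downstream and 19.1 kb upstream. With the regulator this far away, the rule itself placed these 3 boundaries near the start of the next gene. The regulator fkh, a forkhead factor of the gut and salivary glands, was the exception on the downstream side: the boundary lay 295.5 bp before its start and had one of the highest scores of the class, 0.305, with a downstream TAD of 72.4 kb that held 1 coding gene. At Fmrf, which encodes a neuropeptide precursor, the boundary was weak (0.0307) and lay 417.5 bp past the gene. At the miRNA gene mir-305 it had a score of -0.169 and lay 499.5 bp past the gene and 274.5 bp before GJ20958.

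The D. melanogaster list was then searched for boundaries at the same ends of these genes, a comparison added after the D. virilis values had been seen. Of the 14 genes, 13 were matched by name or synonym. At 7 of the 13 a D. melanogaster boundary centre lay within 1000 bp of the same gene end. By end, these were 5 of 8 genes at the 3′ end (interval 24.5 to 91.5%) and 2 of 5 at the 5′ end (5.27 to 85.3%). The 13 include miRNA genes, which the shares over coding genes leave out. For comparison, 6.64% of the 13945 D. melanogaster coding genes had a boundary within 1000 bp of their 3′ end and 16.0% within 1000 bp of their 5′ end. The 7 were amd (99 bp), Trx2 (177 bp), mir-305 (336 bp), FMRFa (63.5 bp), lab (763.5 bp), pros (39 bp) and Gpdh1 (919.5 bp). At amd, Trx2, mir-305, FMRFa and lab the D. melanogaster boundary also lay between same-strand genes near a start, and at pros and Gpdh1 it lay inside the gene.

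At the other 6 genes the nearest D. melanogaster boundary was 2491 bp from the end of TyrRS (the counterpart of Aats-tyr, 538 bp from its start), 8476.5 bp from eve, 8994.5 bp from mir-210, 12763.5 bp from mir-969, 14909 bp from fkh and 20879 bp from hook. In D. virilis the boundary itself lay far from the gene end at eve, mir-969, pros and lab, and the distance to the same end differed between species. It was 15071 bp in D. virilis and 39 bp in D. melanogaster for pros, 2009 and 763.5 bp for lab, 6371.5 and 12763.5 bp for mir-969 and 11193.5 and 8476.5 bp for eve. At pros and lab, which are among the 7, the D. virilis boundary was therefore itself more than 1000 bp from the gene end.

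The same was counted for all named genes of D. virilis that had a match (365 of 453), whether or not they flanked a boundary of the class. Where D. virilis had a boundary within 1000 bp of the 5′ end, D. melanogaster had one at 18 of 39 genes (46.2%, interval 30.1 to 62.8%), against 32 of 326 where D. virilis had none (9.82%, 6.81 to 13.6%). At the 3′ end the counts were 6 of 22 (27.3%, 10.7 to 50.2%) and 24 of 343 (4.53 to 10.2%). The intervals did not overlap at either end. Neighbouring genes share boundaries, so these genes are not fully separate observations.

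**Figure D5:**
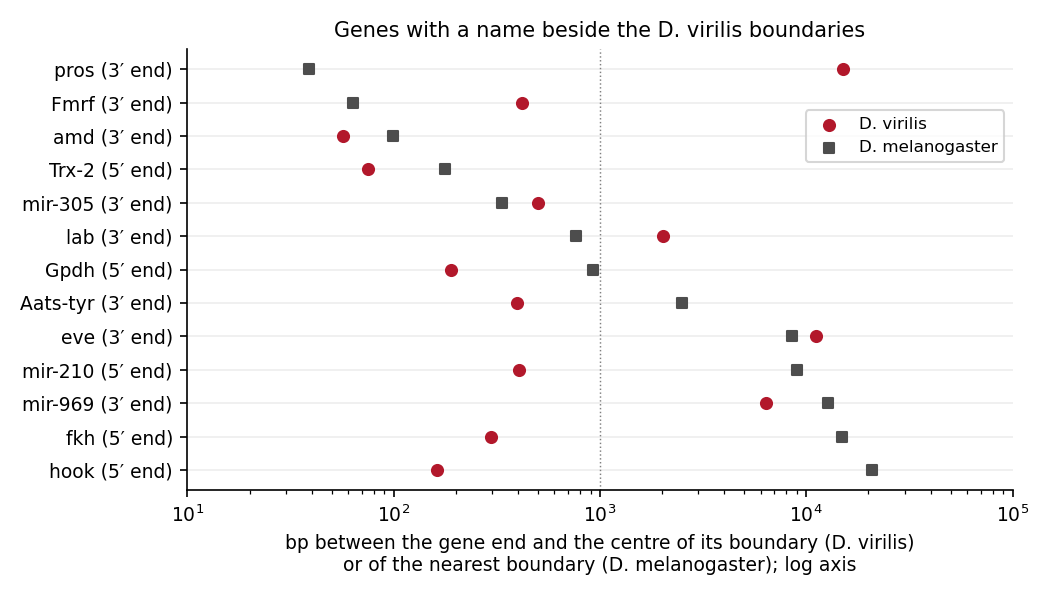
Distance in bp (log axis) between the gene end that faces the boundary and the boundary centre in D. virilis (red circles), and the nearest boundary centre to the same gene end in D. melanogaster (grey squares), for the 13 matched genes; the dotted line marks 1000 bp. Of the D. melanogaster distances, 7 lie left of the line and 6 right of it.

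In D. melanogaster as a whole, the same rule chose 246 of 2209 boundaries (11.1%, interval 9.85 to 12.5%), close to the 11.6% of D. virilis. The annotations differ in detail, so the shares are given side by side only. The median score of the class was -0.0948, against -0.0773 for the other boundaries of that list, and scores were not set across lists. Short gaps were more frequent in the class, with 164 of 246 at 1000 bp or less, against 112 of 247 in D. virilis. Of all 5421 same-strand gaps of D. virilis, 1762 measured up to 0.5 kb and 872 between 0.5 and 1 kb. Such gaps were not counted over the D. melanogaster genome. A difference in gene spacing between the genomes therefore cannot be told apart from one of the boundaries. In the short gaps of D. melanogaster the centre was nearer the start at 89 of 164 (54.3%, 46.3 to 62.1%). The median distances there were 181 bp to the 5′ end and 199 bp to the 3′ end, close to the 179 and 204 bp of D. virilis.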

How the data were processed

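In situ Hi-C was performed by the authors on mixed-sex embryos of stage 15 to 16, with DpnII as the restriction enzyme. Per the labels and the study's methods, the authors aligned reads with BWA and used HiCExplorer to build fragment-resolution matrices, to sum the 2 replicates of a species and to call boundaries (hicFindTADs). Each line of a deposited list holds a boundary's start and end position and its score, the TAD-separation score of the authors' caller, which was compared only inside a list. For D. virilis the authors lifted FlyBase gene models over to their Hi-C assembly with CrossMap; the deposited chain file gives the place of the earlier pieces. The contacts behind a boundary are not in the lists, so the depth per boundary is unknown; weak boundaries can be missed where contacts are few.

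Boundary centres were placed relative to 14493 genes and 22043 transcripts on 6 arms, with a window of 1000 bp. A TAD was the stretch between consecutive centres, and a gene was counted in the TAD that holds its midpoint. Joints were placed midway between consecutive pieces of the chain file, where the space between pieces exceeds the spacer described in the methods for a reason not resolved here. With 1 merged map per species no test was made: medians are given with 95% binomial order-statistic intervals and shares with exact (Clopper-Pearson) intervals. The D. melanogaster list was set on the Ensembl BDGP6 annotation without transposable elements; 56.4% of its 4418 edges were at most 3 bp from the centre of a bin derived from DpnII sites of that genome, against 1.95% after moving the edges by 1000 bp. No D. virilis or D. busckii genome was used, and the D. busckii list entered only the total.

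The genes named were those flanking the 10 lowest and 5 highest scores, the 3 shortest and 3 longest gaps, the 3 longest TADs, the 5 TADs bounded by the class with the lowest summed scores, the 3 boundaries on each side of the window's limit, and all flanking genes with a symbol of their own, including any in lists of housekeeping, architectural protein, dosage compensation and developmental genes. The class and these lists were chosen with earlier results of these data known. The alternatives changed the window, the genes, the boundaries used and the arms. The placement code was tested on simulated data. Python 3.11.15, NumPy 2.4.6, pandas 2.3.3, SciPy 1.17.1 and matplotlib 3.10.9 were used.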

Additional observations from a re-analysis of the deposited data

How the results depend on the processing

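Of 138 alternative values, 121 stayed within the interval of the value reported (counts within 1.5 times), 16 moved further and 1 changed direction: the share of centres nearer the start in short gaps was 47.7% without arm 3L, against 53.6% with it. Some of the values that stayed could not have moved. Leaving out boundaries near joints removed none of the class. A window of 2000 bp adds no boundary in gaps of up to 1000 bp, so the short-gap share was the same. Requiring the whole boundary interval to lie outside genes left 54 boundaries, with a median gap of 2.95 kb, 2346 bp to the 3′ end of the upstream gene, coding downstream genes of 2.61 kb and 1.85% of next boundaries of the class. Boundaries no wider than 1000 bp numbered 160, with a median gap of 0.908 kb and 573 bp to the 3′ end, and at the wider ones the downstream TAD was the shorter at 71.3%. With the stronger 50% of boundaries, 145 remained of the class, with a median score of -0.152, 16.6% of next boundaries of the class, and a difference from the other boundaries of -0.00185 in place of -0.0347, though a set chosen by score narrows any difference in score by construction. Windows of 500 and 2000 bp gave median gaps of 0.908 and 1.69 kb, and the narrower window gave 9.44% of next boundaries of the class. The share with the shorter TAD downstream lay between 53.1 and 62.2% under the other alternatives, and without any single arm it was between 57.7 and 61.8%. Its interval included 50% for boundaries no wider than 1000 bp (45.1 to 61.0%) and for gaps of up to 1000 bp (46.6 to 65.6%). The interval also did so for the stronger 50% of boundaries (48.4 to 65.2%) and for the 54 boundaries outside genes (41.4 to 69.1%). Leaving out replicates was not possible, since each list comes from a merged map. No paired analysis was possible because each species has 1 boundary list and no replicate lists. How many contacts support a boundary is unknown, and the intervals do not cover differences between embryos or libraries.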
